A study of Medicago truncatula with 21 samples.

Results

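Late seed maturation of the legume Medicago truncatula was followed in the wild-type line R108, by comparing mature seeds with seeds taken 24 days after pollination (DAP). The comparison used 6 of the 21 RNA-sequencing libraries of the series, 3 of R108 at 24 DAP and 3 of mature R108 seeds, chosen by their labels. The labels name no mutation or treatment for R108 and give no number of days for the mature stage. The other libraries came from R108 at 13 DAP and from the abi4-1 line at 13 DAP, 24 DAP and maturity and the abi4-2 line at maturity, 3 for each group; the series title calls the abi4 lines Tnt1 insertion mutants, Tnt1 being a retrotransposon, and ABI4 is known from Arabidopsis as an abscisic acid signalling factor. All plants were grown in a culture room on vermiculite, and seeds were removed from the pod and frozen before extraction. Of 44473 identifiers in the table, 21282 reached a scaled normalized count of at least 10 in at least 3 of the 6 libraries and were tested; the other 23191 were not. No gene names stand beside the identifiers, and the RefSeq gene table of assembly MtrunA17r5.0-ANR matched 0 of them. Results are therefore given for counts of identifiers, for the chromosome or organelle that the identifier names, and for 2 identifiers that rose and 2 that fell. The seed label was not checked against marker genes for the same reason.

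Legume seeds fill with storage proteins and lipids in mid-maturation, when transcripts of storage protein genes are among the most abundant in the embryo. Late maturation follows, in which the seed acquires desiccation tolerance and longevity and then dries. Dry seeds keep a set of stored messenger RNAs, and this phase is known for transcripts of late embryogenesis abundant proteins and other protective proteins. In bulk RNA from whole seeds, fewer cells of a type and less RNA per cell cannot be told apart.

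The 6 libraries held 19042783 to 22139476 deposited normalized counts at 24 DAP, and 19779847 to 20345780 at maturity. Stages differed in the scale on which values were deposited, so each column was divided by its median ratio to the geometric mean of the 21 libraries, which gave factors of 0.552 to 0.560 for 24 DAP and 1.11 to 1.12 for maturity. After this step 1 read was worth about 1.48 to 2.16 at 24 DAP. In mature libraries it was worth 0.90 to 0.92, and the minimum of 10 therefore stood for fewer reads at 24 DAP. Log2 correlations between replicates were 0.974 to 0.979 at 24 DAP, against 0.989 to 0.991 at maturity. The median SD of an identifier among replicates was 0.189 on the log2 scale at 24 DAP and 0.114 in mature seeds.

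Mature libraries stood apart from the others in ways that the stage labels do not describe. Values were given to 2 decimals at 13 and 24 DAP and to 9 decimals in mature seeds. There were 55 identifiers listed at 0 in each of the 9 mature libraries although each of the 12 libraries at 13 and 24 DAP held at least 100, and 10 of them held at least 1000 in each. The opposite was found for 7 identifiers at the bound of 100 and for 0 at the bound of 1000. Between 13 and 24 DAP, with 6 libraries each, 0 identifiers passed from at least 100 in each library of a stage to 0 in each library of the other, in either direction. Whether the authors quantified the mature libraries with other settings is not given in the sources used here, and such a difference cannot be told apart from the stage. A value of 0 in mature seeds is therefore given only as listed at 0.

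The most evident change was in how reads were spread over transcripts. At 24 DAP the 5 most abundant identifiers made up 51.2, 53.2 and 54.0% of the 3 library totals. In mature seeds the 5 most abundant made up 5.44, 5.40 and 5.45%. The groups did not overlap, and the means were 52.8 ± 1.44% at 24 DAP and 5.43 ± 0.0265% in mature seeds (SD, n = 3; two-sided exact permutation p = 0.1, the smallest that 3 against 3 allow). At 24 DAP 5 identifiers were enough to make up 50% of the total in each library, whereas in mature seeds 847, 888 and 873 were needed. The share does not depend on the scale chosen between stages.

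**Figure D1:**
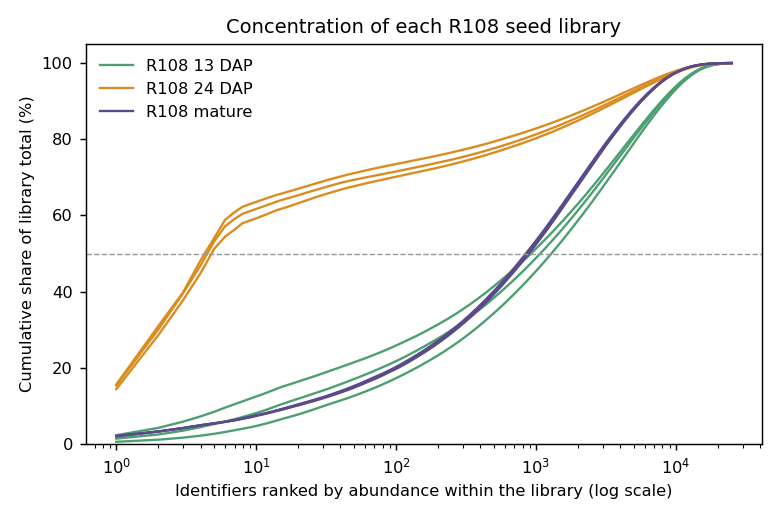
Cumulative share of the library total (%) against the number of identifiers ranked by abundance (log scale), 1 line for each R108 library at 13 DAP, 24 DAP and maturity; the dashed line marks 50%. The 3 lines of 24 DAP cross it at 5 identifiers, and those of mature seeds at 847 to 888, near the lines of 13 DAP at 920 to 1287.

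At 13 DAP the shape was closer to that of mature seeds than to that of 24 DAP, but its libraries varied more. The 5 most abundant identifiers made up 8.48, 2.70 and 5.26% of the R108 libraries at 13 DAP, a range that encloses the mature values. The exact permutation p was 1.0, which with 3 against 3 cannot show likeness. More identifiers were needed for 50% of the total at 13 DAP, at 920, 1287 and 1071, than in any mature library (exact permutation p = 0.1). The leading transcripts of the stages were not the same ones. Of the 10 most abundant identifiers at 24 DAP, 0 were among the 10 most abundant in mature seeds and 4 among those at 13 DAP. Of the 100 most abundant at 24 DAP, 23 were among the 100 of mature seeds and 36 among the 100 of 13 DAP. Mature seeds and 13 DAP shared 0 of their 10 and 10 of their 100 most abundant, so the likeness in shape was not one of leading transcripts.

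The 5 identifiers that led at 24 DAP fell to 0.242, 0.236 and 0.239% of the mature libraries. Each was called lower, with log2 changes from -7.49 to -12.78, and in mature seeds they ranked between 29 and 6689. They were chosen as most abundant in the 24 DAP libraries that the comparison uses, and this choice favours falls. Of the 100 most abundant at 24 DAP 82.0% were called lower, against 46.3% of all identifiers tested. At 13 DAP they already ranked between 1 and 33. Of the 5, 4 lie on chromosome 1, and the numbers of 3 of these span 30. Such neighbours can be near-identical copies that share reads, so the division of counts among them is uncertain.

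MtrunA17_Chr1g0185811, on chromosome 1, was the most abundant identifier at 24 DAP. It stood at 4949071, 5584663 and 6161206 scaled normalized counts in the 3 libraries of 24 DAP and at 2734, 2440 and 2533 in the mature libraries. The groups lay far apart, and the share of the library went from 15.1 ± 0.539% to 0.0143 ± 0.000603% (SD, n = 3). The log2 change was -11.08 ± 0.17 (SE; limma adjusted p = 1.5e-09). At 13 DAP it stood at 294762, 48714 and 159848, below 24 DAP and above mature seeds in each library.

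MtrunA17_Chr7g0261351, on chromosome 7, ranked second at 24 DAP with 4870861, 5368805 and 6266785. It stood at 31468, 29308 and 30357 in mature seeds, where it still ranked 29, and it was the least lowered of the 5. Its log2 change was -7.49 ± 0.29 (SE; limma adjusted p = 4.59e-08), and its share went from 14.9 ± 0.721% to 0.169 ± 0.00344%. Its levels at 13 DAP, 209448, 50870 and 135386, again lay between those of the later stages.

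MtrunA17_Chr7g0257731, also on chromosome 7, was the most abundant identifier in mature seeds. It stood at 1342, 488 and 2409 at 24 DAP and at 394076, 357577 and 367389 in mature seeds. It went from rank 1735 to rank 1 and from 0.00375 ± 0.00234% to 2.08 ± 0.0712% of the library, a rise of 8.32 ± 0.48 on the log2 scale (SE; adjusted p = 4.48e-07 by limma). The libraries of 24 DAP differed among themselves, the highest being replicate 3 and the lowest replicate 2. At 13 DAP the level was 90, 78 and 73, lower than in any later library.

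MtrunA17_Chr8g0341281, on chromosome 8, ranked second in mature seeds. It stood at 1703, 1376 and 2210 at 24 DAP and at 214633, 226151 and 223695 in mature seeds, and limma gave a rise of 7.0 ± 0.16 on the log2 scale (SE; adjusted p = 3.97e-09). At 13 DAP it stood at 85, 35 and 46, so both leading mature transcripts were lowest at 13 DAP, intermediate at 24 DAP and highest in mature seeds, with no overlap between stages. The named identifiers, rises and falls, were chosen among called 4-fold changes without overlap between 24 DAP and mature seeds. That separation and those calls therefore follow from the choice.

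**Figure D2:**
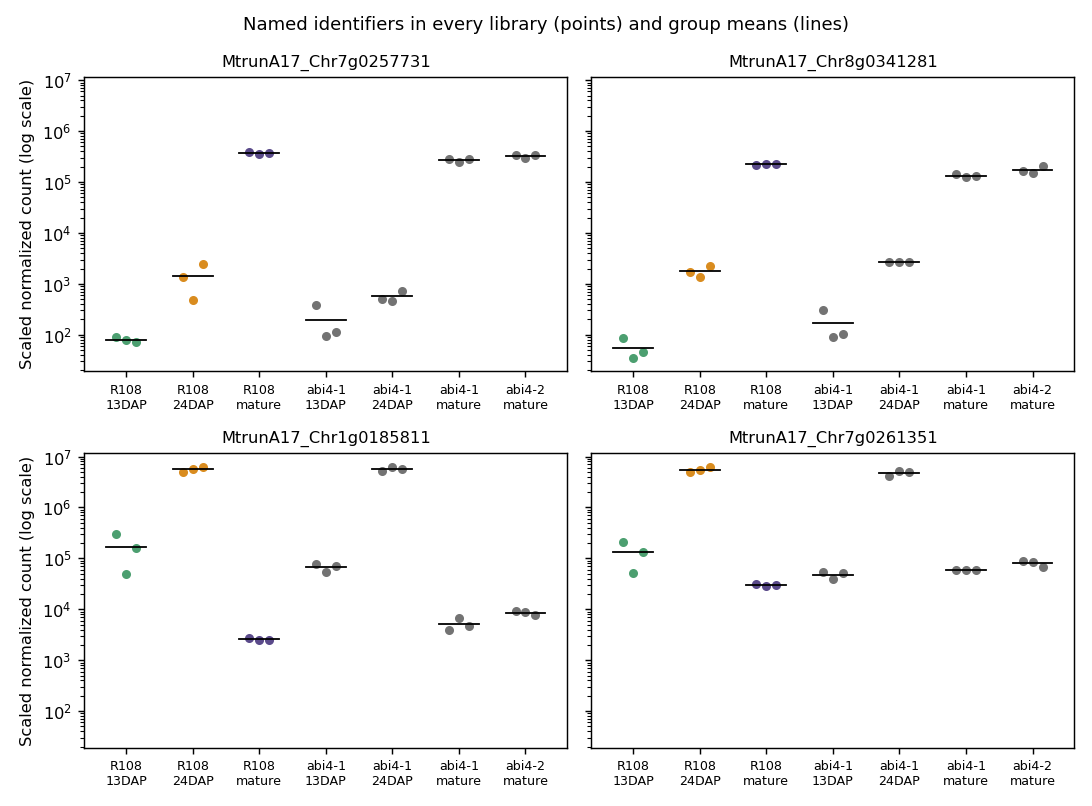
Scaled normalized counts (log scale) of the 4 named identifiers in every library of the 7 groups; points are libraries, horizontal lines group means, and coloured points R108. In R108 the upper 2 identifiers rise from at most 90 at 13 DAP to at least 214633 in mature seeds, and the lower 2 are highest at 24 DAP, at 4870861 to 6266785.

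Most identifiers tested, 86.9%, were called in either direction. Of the 21282, 8636 (40.6%) were called higher in mature seeds and 9858 (46.3%) lower by limma at a Benjamini-Hochberg adjusted p below 0.05, and 2788 were not called. At least 4-fold higher were 3172 (14.9%) and at least 4-fold lower 5755 (27.0%). The surplus of falls grew with the size of the change. At 16-fold or more 864 were higher and 2940 lower, at 64-fold 247 and 1072, and at 1024-fold 9 and 71. The median log2 change over all identifiers tested was -0.16, with an interquartile range of -2.26 to 1.24. The direction of the surplus rested on the scale between stages. With column totals, which the 5 leading transcripts of 24 DAP dominate, 6347 were at least 4-fold higher and 3732 lower, and the median of all was 0.99; with totals that leave out these 5 the counts were 3020 and 5707 and the median -0.19. As deposited they were 6221 and 3778, and of all calls 66.1% were higher as deposited and 66.7% with totals, against 46.7% here. With upper-quartile scaling 9423 were called higher and 8624 lower, but the 4-fold changes were still mostly falls, with 3666 higher and 5009 lower.

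**Figure D3:**
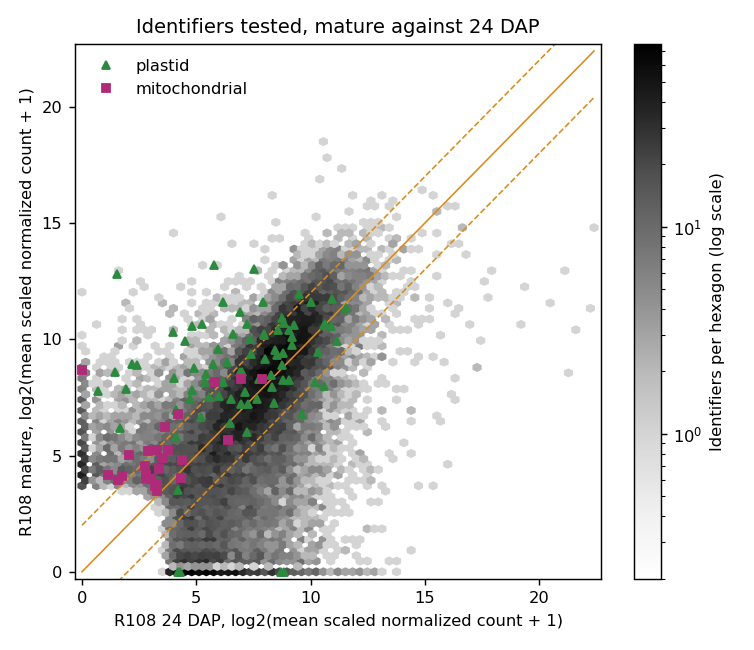
Mean level in mature R108 seeds against that at 24 DAP for the 21282 identifiers tested, both as log2(mean scaled normalized count + 1); grey hexagons count identifiers on a log scale, triangles are plastid and squares mitochondrial identifiers, the solid line marks equal levels and the dashed lines 4-fold. More identifiers lie below the lower dashed line (5755 called) than above the upper one (3172), and the row at 0 on the vertical axis holds identifiers listed at 0 in mature seeds.

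The filter itself shaped part of these counts. All 6 libraries reached 10 for 15187 identifiers, and among them 1878 were at least 4-fold higher and 1985 at least 4-fold lower, nearly equal numbers, with a median log2 change of 0.18. Another 4200 identifiers reached 10 in every library of 24 DAP but not in every mature library, and 1716 the reverse. These classes were bound to lean in opposite directions, so that 3770 of the 4200 were 4-fold lower and 1292 of the 1716 were 4-fold higher is a description of the filter; 86 and 164 were not called. A further 179 reached 10 in all 3 libraries of neither stage. Limited to identifiers above 0 in all 6 libraries, 2329 were at least 4-fold higher and 3823 lower.

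The transcripts that moved most carried much of the RNA. The 3172 identifiers that were 4-fold higher made up 2.69, 2.48 and 2.40% of the libraries at 24 DAP and 42.1, 41.7 and 41.9% of mature seeds. The 5755 that were 4-fold lower made up 75.2, 76.6 and 77.7% at 24 DAP and 2.19, 2.33 and 2.26% in mature seeds; without the 5 leading transcripts they made up 23.7 ± 0.298% and 2.02 ± 0.0710% (SD, n = 3). At 24 DAP the 5 leading transcripts, at a mean of 52.8% of the total, lowered the share of all others. Both sets were chosen on the same libraries, so the shares only describe them. In libraries that did not choose them, at 13 DAP, the first set made up 5.30 ± 0.213% and the second 41.6 ± 3.32%. In mature seeds of abi4-2, the line without a 24 DAP sample, they made up 40.1 ± 0.164% and 3.78 ± 0.108%.

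Shares of rises and falls differed with the level at 13 DAP, which took no part in the comparison, most in the lowest and highest classes. Of all identifiers tested, 14.9% were at least 4-fold higher and 27.0% at least 4-fold lower. Of 736 identifiers tested with a mean of up to 1 at 13 DAP, 539 (73.2%) were at least 4-fold higher in mature seeds and 104 (14.1%) lower. Of 1559 between 1 and 10 these numbers were 667 (42.8%) and 361 (23.2%). In the 3 classes between 10 and 10000 falls outnumbered rises, a direction that rests on the scale between stages. There 4-fold falls made up 25.7 to 30.3%, near the share of all, and 4-fold rises 6.87 to 14.1%. Of 115 identifiers above 10000 at 13 DAP, 0 were 4-fold higher and 78 (67.8%) were 4-fold lower, with a median log2 change of -5.50. Identifiers low at 13 DAP could pass the filter only where 24 DAP or mature seeds were high, so the low classes partly describe the filter.

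**Figure D4:**
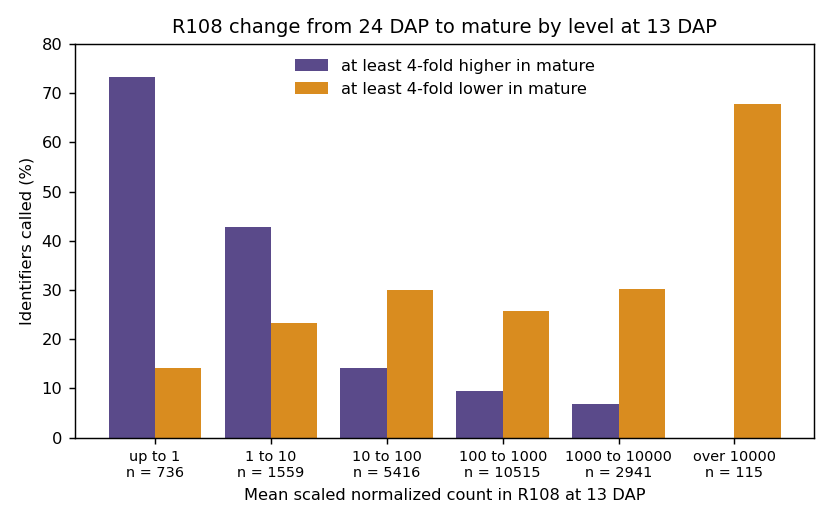
Share of identifiers (%) called at least 4-fold higher or lower in mature R108 seeds than at 24 DAP, by their mean scaled normalized count in R108 at 13 DAP; n is the number tested in a class. The share of rises goes from 73.2% in the lowest class to 0 in the highest, and falls make up 67.8% of the highest.

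Between 13 and 24 DAP the identifiers that were later 4-fold higher stood much as all identifiers did. Of the 3172, 2326 (73.3%) were within 2-fold of their 13 DAP level at 24 DAP, against 70.7% of all 21282 tested. At least 4-fold above it were 208 (6.56%, against 7.17% of all) and at least 4-fold below it 112 (3.53%, against 5.36%). Their median levels were 33.6 at 13 DAP, 41.8 at 24 DAP and 407 in mature seeds. Of the 5755 later 4-fold lower, 2776 (48.2%) were within 2-fold between 13 and 24 DAP, 759 (13.2%) stood at least 4-fold above their 13 DAP level at 24 DAP and 744 (12.9%) at least 4-fold below it. Their median levels were 190 at 13 DAP, 147 at 24 DAP and 5.13 in mature seeds. These are levels on the common scale, with no test, and the earlier and the later interval share the 24 DAP libraries.

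Some transcripts were present in mature seeds and near-absent at 24 DAP, and more were so the other way round. At 10 or more in each mature library and below 3 in each library of 24 DAP were 580 identifiers, 2.73% of those tested, and 355 of these were listed at 0 in all 3 libraries of 24 DAP. The reverse held for 1980 identifiers, 9.30% of those tested, of which 796 were listed at 0 in all 3 mature libraries. These bounds stand for fewer reads at 24 DAP than in a mature library. The excess narrowed to 853 and 1312 as deposited, 861 and 1278 with column totals and 618 and 1707 with the upper quartile. With ratios over the 6 columns the numbers were 576 and 2005, and with totals that leave out the 5 leading identifiers of 24 DAP 566 and 1901. Of the 580, 16 (2.76%) had a mean of at least 10 at 13 DAP, against 89.2% of all identifiers tested, and 450 were below 3 in each library of that stage, against 963 of all 21282. Of the 1980, 1709 (86.3%) had a mean of at least 10 at 13 DAP, a share near that of all. The 580 were chosen as near-absent at 24 DAP and the 1980 as present then. Of all identifiers tested, 70.7% stood within 2-fold between 13 and 24 DAP, so the levels at 13 DAP partly follow from this choice. Most of the 580 were of modest abundance, with a median level of 31.7 and 4 above 1000; of the 1980, 79 stood above 1000 at 24 DAP, the highest at 23407. The 55 identifiers described above, listed at 0 in all 9 mature libraries, are by definition among the 1980, and the 7 of the opposite pattern among the 580.

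The plastid and mitochondrial identifiers tested were mostly called higher, while the nuclear chromosomes had similar shares of rises and falls. Over chromosomes 1 to 8, the share of tested identifiers called higher was 38.3 to 41.3% and the share called lower 43.9 to 49.1%, with medians from -0.34 on chromosome 2 to -0.05 on chromosome 6. Of 81 plastid identifiers tested out of 85, 56 (69.1%) were higher and 14 (17.3%) lower, against 40.6 and 46.3% of all identifiers, with a median log2 change of 1.66 and a range from -8.82 to 11.55. Plastid transcripts made up 0.107, 0.0735 and 0.0745% of the libraries at 24 DAP and 0.430, 0.557 and 0.501% of mature seeds, without overlap (two-sided exact permutation p = 0.1). Of 25 mitochondrial identifiers tested out of 72, 18 (72.0%) were called higher and 1 (4.0%) lower, and the median was 1.51. Identifiers low at 24 DAP could pass the filter only where mature seeds were high, so the mitochondrial counts partly describe the filter. Without a filter the mitochondrial median was 1.19, and with a pseudocount of 10 it was 1.05. The mitochondrial share was 0.00211, 0.00219 and 0.00185% at 24 DAP and 0.0121, 0.0116 and 0.0120% in mature seeds. At 24 DAP the 5 leading identifiers took a mean of 52.8% of the total, which lowers every other share at that stage. In R108 at 13 DAP the plastid share was 0.183 ± 0.0616% and the mitochondrial share 0.00537 ± 0.00187% (SD, n = 3). Not all plastid identifiers were present in mature seeds: 4 at 10 or more in each 24 DAP library, 2 of them at 100 or more, were listed at 0 in each mature R108 library, and 1 of these was at 0 in all 9 mature libraries while at 100 or more in the other 12. Messenger RNA was enriched before sequencing, per the labels' protocol, and its part in the organelle shares was not tested.

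The same interval in abi4-1 used 6 other libraries. There 86.0% of 21715 tested were called, 8646 (39.8%) higher and 10029 (46.2%) lower, and 3172 (14.6%) and 5755 (26.5%) by at least 4-fold, counts that equal those of R108 although the sets differ, sharing 2518 and 4747. Of 8443 identifiers higher in R108 and tested in abi4-1, 7615 (90.2%) were also called higher and 102 lower. Of 9501 lower in R108, 8664 (91.2%) were also lower and 131 higher. Among those with a 4-fold change in R108 the agreement in direction was 97.9% of 3016 rises and 98.4% of 5448 falls. The log2 changes of the 20627 identifiers tested in both correlated at 0.958 across identifiers, which are not independent replicates and share the stage-wise processing. The 5 most abundant identifiers made up 53.1 ± 1.56% at 24 DAP and 3.96 ± 0.129% in mature abi4-1 seeds (SD, n = 3; two-sided exact permutation p = 0.1).

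**Figure D5:**
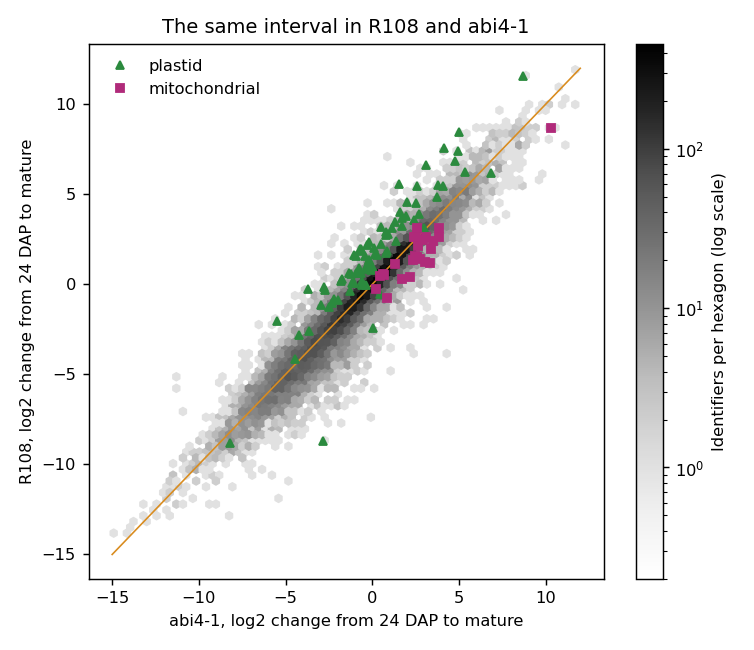
Log2 change from 24 DAP to maturity in R108 against that in abi4-1 for the 20627 identifiers tested in both; grey hexagons count identifiers on a log scale, triangles are plastid and squares mitochondrial identifiers, and the line marks equal change. Most identifiers lie along the line (correlation 0.958), with plastid identifiers mostly above it and mitochondrial ones mostly below.

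Whether the R108 change differed from that of abi4-1 was tested as an interaction over the 12 libraries, in which a scale factor common to a stage largely cancels. Of 22988 identifiers 20.4% were called. The R108 change was more positive for 2087 (9.08%) and more negative for 2595 (11.3%), and by at least 4-fold for 408 (1.77%) and 606 (2.64%). Among plastid identifiers the R108 change was more positive for 59 of 81 (72.8%) and more negative for 1, with a median difference of 1.64 on the log2 scale. In abi4-1 the plastid share was 0.110, 0.0535 and 0.0778% at 24 DAP and 0.112, 0.118 and 0.1% in mature seeds, with overlap (two-sided exact permutation p = 0.2). Of 40 mitochondrial identifiers, in the same limma fit, 0 were more positive and 6 more negative, with a median difference of -0.74.

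The 4 named identifiers moved in the same direction in both genotypes, with log2 changes in abi4-1 of 8.93 for MtrunA17_Chr7g0257731, 5.64 for MtrunA17_Chr8g0341281, -10.16 for MtrunA17_Chr1g0185811 and -6.32 for MtrunA17_Chr7g0261351. MtrunA17_Chr8g0341281 rose more in R108, by 1.36 ± 0.19 on the log2 scale (SE; limma adjusted p = 0.000306). For MtrunA17_Chr1g0185811 the fall was larger in R108, with a difference of -0.92 ± 0.29 (limma adjusted p = 0.0374), and for MtrunA17_Chr7g0261351 it was -1.17 ± 0.34 (limma adjusted p = 0.0255). Both calls lay near the threshold, and many fits with 1 library fewer lost them with differences of similar size. All 4 identifiers were chosen on R108 libraries, which the interaction also uses. For MtrunA17_Chr1g0185811 of the 12 fits that each left out 1 library, the call held in those without R108 24 DAP replicate 1, abi4-1 24 DAP replicate 2 or abi4-1 mature replicate 1 and was lost in the others, and the limma adjusted p reached 0.115 without R108 mature replicate 3. Over the 12 fits the difference was -0.69 to -1.09. For MtrunA17_Chr7g0261351 it was lost without any of the 3 R108 mature libraries or without abi4-1 mature replicate 1 or 3, with limma adjusted p from 0.0582 to 0.114, and over the 12 fits the difference was -1.07 to -1.26. For MtrunA17_Chr7g0257731 the difference was -0.61 ± 0.56 (limma adjusted p = 0.489), and without R108 24 DAP replicate 2 it was -1.24 with an adjusted p of 0.0151.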

How the data were processed

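RNA of whole seeds was sequenced as short reads; the submitters' processing notes name Salmon without a version. The deposited values, named FPKM by the authors, behave as a signal resembling normalized counts, with a scale of its own for each stage. Not given in the sources used here are genome build, annotation and normalization tool. Low values lay within 0.1 of a whole multiple of 1 read in 63.0 to 86.3% of cases at 24 DAP and in 95.9 to 97.7% at maturity. Reads could thus not be restored at 24 DAP, and count models were left out; estimated depths were 18573386 to 23222906 reads. The table had 0 columns of other samples.

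Columns were divided by their median ratio to the geometric mean over identifiers above 0 in all 21 columns. Log2(value + 1) was fitted with limma 3.58.1 (R 4.3.3, intensity trend) on 6 libraries, or 12 for the interaction, keeping identifiers at 10 or more in at least 3. Calls have a Benjamini-Hochberg adjusted p below 0.05; the pseudocount of 1 understates changes of low identifiers. Shares were compared with exact permutation tests (scipy 1.17.1). The fits were also run on simulated data, in which few identifiers changed and no scale difference between stages was set. That run therefore does not cover the scale between stages or changes as widespread as those seen here. The design text of the series names lines of another gene than the labels; the labels were followed, and p-values cover no more than the variation among these samples should replicates share plants.

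The comparison, its scale and its filter were chosen with earlier results of these data known. Identifiers named are the 2 most abundant in mature seeds among those 4-fold higher and the 2 most abundant at 24 DAP among those 4-fold lower, without overlap. Deviations of same-numbered libraries of 24 DAP and maturity correlated at -0.0093 to 0.0073, so replicate numbers were not taken as pairs. Gene lists and cell type markers, which need names, were not run.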

Additional observations from a re-analysis of the deposited data

Results flagged for a closer look

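The change from 24 DAP to maturity differed between R108 and abi4-1 in the interaction test. It was more positive in R108 for 2087 (9.08%) of 22988 identifiers and more negative for 2595 (11.3%). Of 81 plastid identifiers 59 (72.8%) were more positive and 1 more negative. Of 40 mitochondrial identifiers 6 (15%) were more negative, a share near that of all. MtrunA17_Chr8g0341281 differed by 1.36, MtrunA17_Chr1g0185811 by -0.92 and MtrunA17_Chr7g0261351 by -1.17 on the log2 scale. For MtrunA17_Chr1g0185811 and MtrunA17_Chr7g0261351 the limma adjusted p was 0.0374 and 0.0255, and several fits with a library left out lost these calls. The named identifiers were chosen on R108 libraries, which the interaction also uses.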

How the results depend on the processing

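The scale between stages moved the counts most. With values as deposited 6212 identifiers were called lower, 6221 were 4-fold higher and 3778 4-fold lower; with column totals these were 6054, 6347 and 3732, and 66.7% of all calls were higher in place of 46.7%. Plastid medians were then 2.70 and 2.69, mitochondrial medians 2.46 and 2.49, the median of all identifiers 0.95 and 0.99, and those lower in both genotypes 5317 and 5202. The mitochondrial median was 1.95 with ratios over the 6 columns, 1.94 with the upper quartile (median of all 0.12), 1.19 without a filter and 1.05 with a pseudocount of 10. Against a 2-fold change 5068 were called higher. Limited to identifiers above 0 in all 6 libraries, an alternative chosen after seeing the data, 3823 were 4-fold lower. Present in mature seeds and near-absent at 24 DAP were 853 and the reverse 1312 as deposited, and 861 and 1278 with column totals, on scales added after seeing the data; runs of falls were then 3 and 3. In place of 47.4 percentage points for the top 5, the drop in share was 13.1 for the top 1, 54.0 for the top 10, 54.3 for the top 50 and 51.7 for the top 100. With column totals that leave out the 5 leading identifiers of 24 DAP, 3020 were 4-fold higher and 5707 4-fold lower, and the median of all was -0.19. The cause of the shifts listed here was not otherwise tested. With the replicate number as a block 8575 were called higher and 9781 lower, within 1.5 times. Leaving out a library, with the identifiers of the full fit (a choice made after seeing that the filter otherwise removed identifiers of the smaller group), gave 8230 to 8621 higher and 9529 to 9756 lower, and 3130 to 3183 and 5724 to 5768 by 4-fold; R108 was more positive than abi4-1 for 1594 to 2144 and more negative for 2077 to 2488. With a pseudocount of 0.1 the differences of MtrunA17_Chr1g0185811 and MtrunA17_Chr7g0261351 had limma adjusted p of 0.0772 and 0.116. Depth limits identifiers near the minimum of 10, most at 24 DAP, where 1 read was worth up to 2.16.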

Other observations

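Some falls lay side by side along the chromosomes. In the order of identifier numbers there were 15 runs of at least 7 consecutive tested identifiers that were all 4-fold lower in mature seeds, and 0 such runs of rises, among which the longest held 6; 27.0% of tested identifiers were 4-fold lower and 14.9% 4-fold higher. The contrast with rises depended on the scale between stages. It turned with column totals, at 3 such runs of falls and 23 of rises, and as deposited, at 3 and 20. With the upper quartile it narrowed to 11 and 5. With ratios over the 6 columns the runs were 13 and 1, and with totals that leave out the 5 leading identifiers of 24 DAP 15 and 0. The longest run of falls held 13 identifiers on chromosome 7, with log2 changes from -13.71 to -4.67 and a median of -6.48. All 13 were 4-fold lower in abi4-1 as well, as were 87.1% of the 5448 identifiers 4-fold lower in R108 and tested there. Runs of 10 were found on chromosome 2, with a median of -4.42, and on chromosome 4, with a median of -5.92. Neighbouring copies of a gene family can share reads, so members of a run were not taken as independent. Whether they are such copies was not tested. These runs were looked for, and the scales compared, after the data were seen, and the cause was not tested.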
